A study of Mus musculus with 4 samples.

Results

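The genes described here are the mouse genes that the authors' mRNA annotation assigns to the KEGG pathway of DNA replication (mmu03030). They numbered 35 of the 21878 genes in the mRNA table, with 84 of its 75959 transcripts. The transcripts of each gene were summed, and a gene was tested where its mean over the 4 samples was at least 0.1 FPKM (read fragments corrected for the length of the transcript and the size of the library). All 35 passed this limit, as did 13199 genes in all. The RNA came from C3H10T1/2, a mouse mesenchymal cell line with stem cell properties that is widely used to study muscle, fat and cartilage formation. The untreated group held 2 samples, replicates 1 and 2, for which no culture time is listed. The 5-AZA group held 2 samples, replicates 101 and 102, given 20 μM 5-AZA for 72 hours and then kept in fresh medium for 21 days. 5-AZA (5-azacytidine) is a cytidine analogue that is built into nucleic acids and lowers DNA methylation. The study's text gives several exposure times and describes picking clones of myotube-like cells with rings, and the labels do not say whether the sequenced samples were picked in this way.

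In eukaryotic cells the MCM ring is loaded at replication origins and, once activated, unwinds the duplex. DNA polymerase alpha-primase lays down RNA-DNA primers, DNA polymerases epsilon and delta extend the leading and lagging strands while held by the sliding clamp PCNA, replication protein A covers the unwound single strands, and nucleases and DNA ligase I turn the lagging-strand fragments into a continuous strand. Most of these genes are transcribed most strongly in dividing cells around the start of S phase, many of them under E2F transcription factors, and multinucleated muscle fibres no longer copy their DNA.

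Promoter sequences were matched for 29 of the 35 genes in the RefSeq promoter table (GRCm38.p6, 250 bases before to 50 bases after each start), and Mcm4, Pole, Prim2, Rfc2, Rnaseh1 and Rnaseh2b had no entry. Spellings of the E2F recognition sequence, TTTCCCGC, TTTGGCGC and TTTCGCGC, were searched on both strands. They were found in 11 of the 29 genes (37.9%), against 2.12% of the 27025 genes in the table. These were Lig1, Mcm3, Mcm5, Mcm6, Mcm7, Pola1, Pold1, Pold3, Pole2, Pole4 and Rfc3. Lig1, Mcm7, Pold1 and Pold3 are not shown. The 7 stretches below were picked by hand as examples from MCM, polymerase and clamp loader genes, among them Pole2, which held the largest change. They are written 5′ to 3′ on the strand of the gene, and capitals mark the matches, which overlap each other in the first match of Mcm6 and in Mcm5.
Mcm6, chr1:128359719-128359841, minus strand, positions -136 to -14 from the start: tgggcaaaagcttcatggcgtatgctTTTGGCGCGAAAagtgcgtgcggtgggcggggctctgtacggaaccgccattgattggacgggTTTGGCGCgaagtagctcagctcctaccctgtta
Mcm5, chr8:75109330-75109393, plus strand, positions -179 to -116: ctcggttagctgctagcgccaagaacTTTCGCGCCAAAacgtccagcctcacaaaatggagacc
Pola1, chrX:93632260-93632319, minus strand, positions -164 to -105: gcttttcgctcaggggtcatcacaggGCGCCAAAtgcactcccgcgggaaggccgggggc
Pole4, chr6:82652875-82652934, minus strand, positions -60 to -1: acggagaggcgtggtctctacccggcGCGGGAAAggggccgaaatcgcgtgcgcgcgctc
Rfc3, chr5:151651195-151651224, minus strand, positions -16 to 14: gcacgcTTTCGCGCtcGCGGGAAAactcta
Pole2, chr12:69228162-69228191, minus strand, positions -1 to 29: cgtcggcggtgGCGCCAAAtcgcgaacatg
Mcm3, chr1:20820266-20820295, minus strand, positions 18 to 47: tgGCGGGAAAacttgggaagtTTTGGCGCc

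The summed FPKM over all mRNA transcripts was 328410 to 361664 per sample, FPKM keeps no read counts, and the depth behind a single value is therefore unknown. The mesenchymal markers vimentin and the collagens Col1a1, Col1a2 and Col3a1 were expressed in all samples, with Vim at 2268 and 2406 FPKM in the untreated samples and at 1178 and 1380 FPKM after 5-AZA. Of the 8 mesenchymal markers, 4 were lower and 3 higher at an adjusted p-value below 0.05 (limma). Thy1 was among the higher ones, at 0.578 and 0.785 FPKM in the untreated samples and at 10.4 and 14.2 FPKM after 5-AZA. The untreated samples also held cartilage markers, with Col2a1 at 67.5 and 57.1 FPKM, and after 5-AZA it was at 4.13 and 6.84 FPKM, with 3 of 4 tested cartilage markers called lower and 1 higher. Also after 5-AZA, 8 of 8 skeletal muscle markers were called higher (an adjusted p-value below 0.05 with limma and a change over 2-fold), their summed level going from 1.10 to 1.27 FPKM in the untreated samples to 794 to 1214 FPKM, and 6 of 6 adipocyte markers passed the test, their summed level going from 30.1 to 45.3 FPKM to 1094 to 1504 FPKM. The blood cell markers Adgre1 and Cd3e and the endothelial markers Kdr and Tie1 were listed at 0 in every sample. Others of these lists were low, with Cd68 at 1.16 and 1.47 FPKM and then at 2.27 and 3.69 FPKM (called higher), Lyz2 at 0.800 to 1.70 FPKM in all samples, and Cdh5 at up to 0.00622 FPKM and then at 0.484 and 0.211 FPKM (called higher). Of 4 tested epithelial markers 3 were called higher, among them Krt8, at 0.395 and 0.379 FPKM and then at 15.3 and 19.4 FPKM. In bulk RNA, fewer cells of a type and less RNA per cell cannot be told apart, and the part that the changes in these markers had in the results below was not tested. The study's text calls the samples of a group biological repeats, while the labels do not say that they came from separate cultures, so the p-values measure only the spread between these samples, which may be technical.

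The replication genes were present at moderate levels in both groups. Their median level was 12.0 and 10.7 FPKM in untreated replicates 1 and 2 and 9.78 and 11.4 FPKM in 5-AZA replicates 101 and 102, and their sum was 540.9, 465.4, 449.3 and 472.9 FPKM. Pcna, the sliding clamp, was the most abundant, with a mean of 79.8 FPKM, above 95% of the genes tested. Dna2, a nuclease and helicase that trims long flaps on lagging-strand fragments, was the least abundant, with a mean of 0.387 FPKM, above 10% of the genes tested. The levels of the 35 genes thus spanned a wide range, while each gene's 4 samples lay close together beside it.

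**Figure D1:**
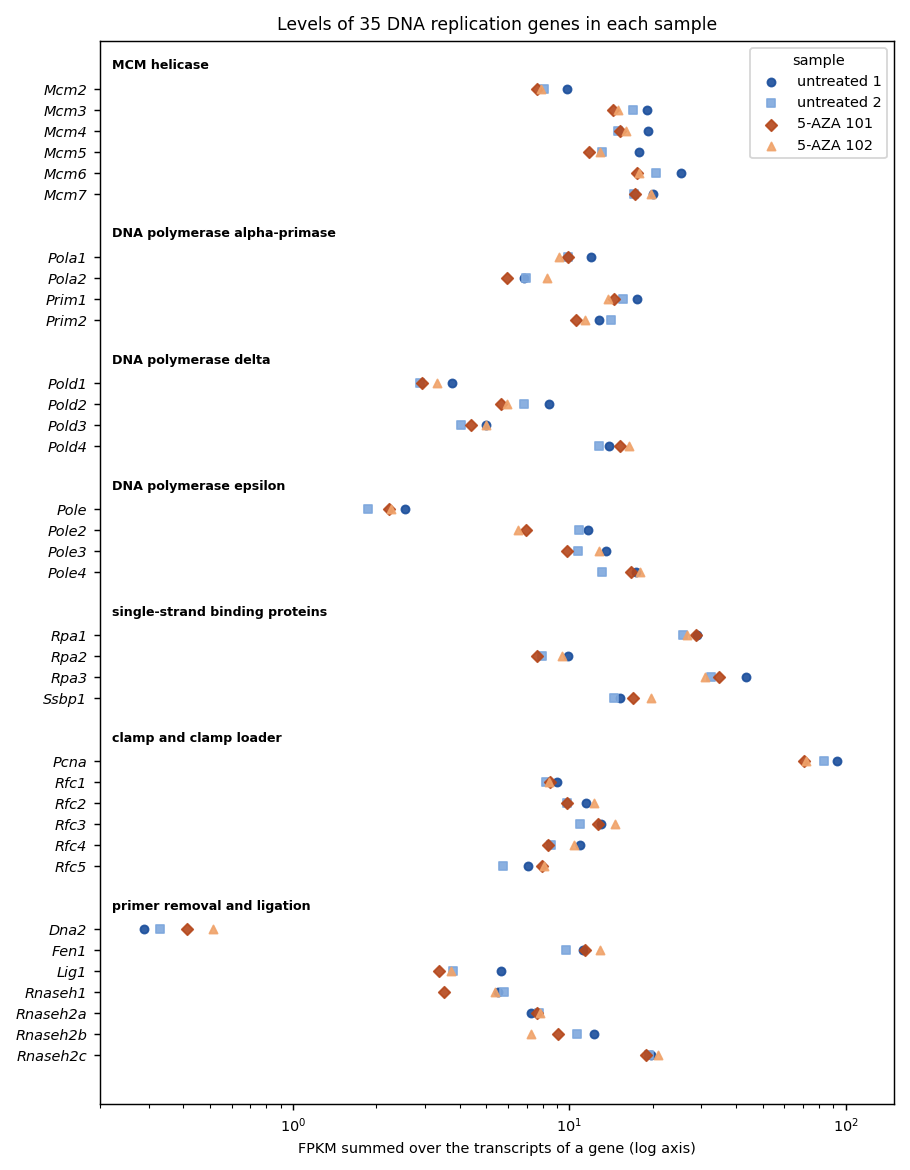
Levels of the 35 DNA replication genes, ordered by role, as FPKM summed over the transcripts of a gene on a log axis, with 1 point for each of the 4 samples. Pcna lies between 70.8 and 93.3 FPKM and Dna2 between 0.290 and 0.513 FPKM, and the points of the untreated (blue) and 5-AZA (orange) samples lie close together for most genes.

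Between the groups, 2 of the 35 genes passed the test and both fell after 5-AZA. These were Pole2, the second subunit of DNA polymerase epsilon, and Rnaseh2b, a subunit of the ribonuclease H2 that cuts RNA joined to DNA. The test was limma on log2(FPKM + 0.1) over all 13199 genes, with Benjamini-Hochberg adjustment and a threshold of 0.05, and "passed" means an adjusted p-value below it. Of all genes tested, 5.93% passed as lower and 18.6% as higher, so that the 2 of 35 replication genes (5.71%) that passed as lower made up a share near the background, and 0 of 35 passed as higher. A gene was called where it passed and changed over 2-fold, and 0 of the 35 genes were called lower and 0 higher, against 1.32% of all genes called lower and 13.1% called higher.

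Without the adjustment, 7 genes (20%) were lower at a p-value below 0.05, against 11.1% of all genes. They were Pole2, Rnaseh2b, Pcna, Mcm6, Pold2, Mcm3 and Prim2. Only Ssbp1 was higher at that level (2.86%), against 24.4% of all genes. In 13 of the 35 genes (37.1%) both 5-AZA values lay below both untreated values, against 25.4% of all genes, and in 5 (14.3%) both lay above, against 36.8%. The median log2 fold change of the replication genes was -0.06, with 21 genes below 0 and 14 above, beside a median of 0.05 over all genes tested.

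The intervals of most replication genes were narrow. The 95% interval of the log2 fold change lay within 2-fold in either direction for 33 of the 35 genes (94.3%), against 69.9% of all genes tested. The exceptions were Pole2, with an interval of -1.04 to -0.43, and Dna2, with an interval of -0.27 to 1.18. The share over all genes includes genes that changed over 2-fold and genes down to 0.1 FPKM. Most replication genes lay at higher levels, and the part that level had in this contrast was not tested.

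**Figure D2:**
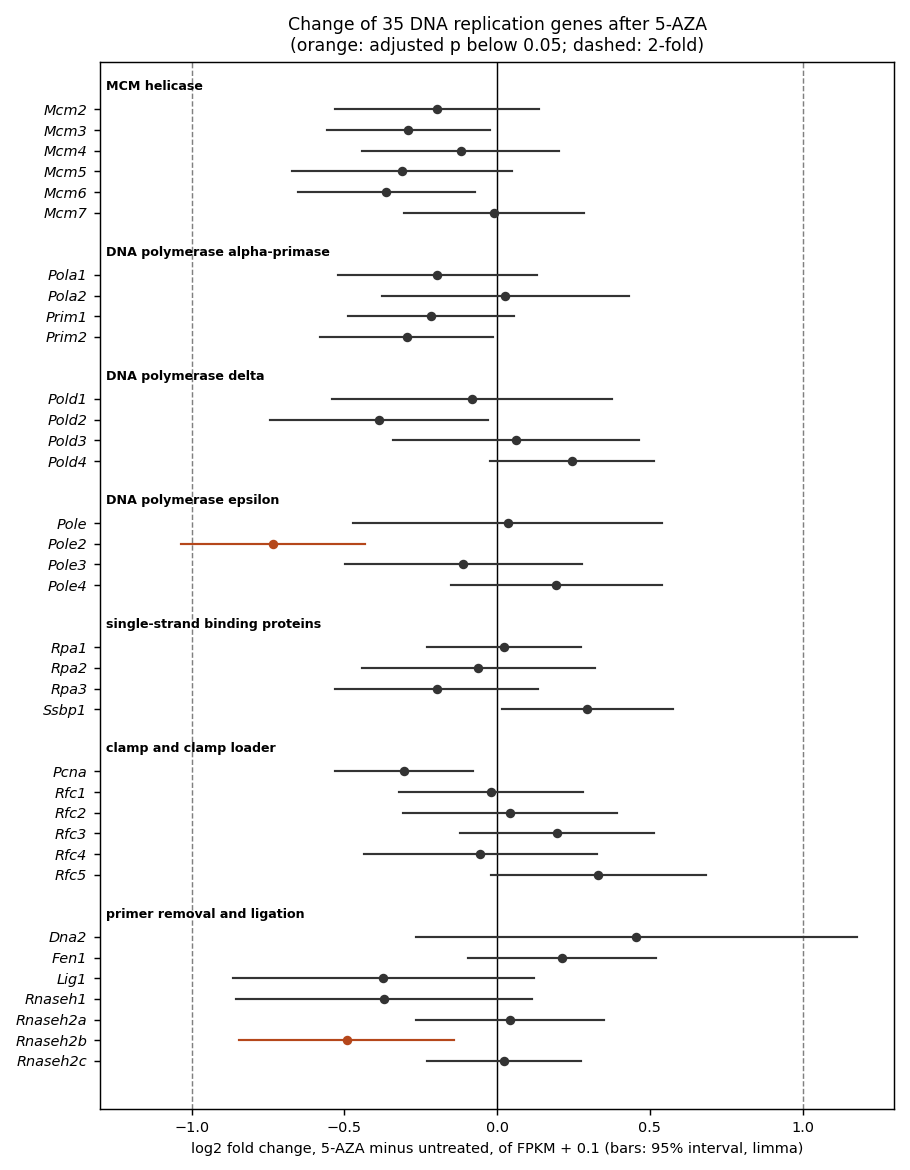
Log2 fold change of each replication gene, 5-AZA minus untreated, on the log2(FPKM + 0.1) scale, with the 95% interval from limma as a bar. Pole2 and Rnaseh2b (orange) passed the test at -0.73 and -0.49, and no gene's estimate reaches the dashed lines at 2-fold.

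The scaling of the samples bears on these counts. The median log2 fold change over all genes was 0.05 with FPKM as deposited, -0.06 after each sample was centred on its median and -0.12 after quantile normalization, and the share of passing genes that were lower went from 24.2% to 44.4% and 58.5%. After either of these scalings 7 replication genes passed as lower, the same 7 that were lower without adjustment, and 0 as higher, beside 14% and 19.0% of all genes passing as lower. The median of the replication genes was then -0.17 and -0.18. Its difference from the median of all genes was -0.11 before and after centring and -0.06 after quantile normalization. Centring shifts all genes of a sample alike, so that it could not alter this difference. With FPKM rescaled to a common sum per sample, 3 replication genes passed as lower, beside 8.41% of all genes. They were Pole2, Pcna and Mcm3, while Rnaseh2b did not pass (limma adjusted p = 0.0724).

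Untreated replicate 1 stood apart from replicate 2 in these genes. It was the higher of the pair in 30 of 35 replication genes, by a median of 0.23 on the log2 scale, against 63.3% of all genes and a median of 0.06. In 21 of the 35 genes the highest of all 4 values was that of untreated replicate 1, and in 12 genes that of 5-AZA replicate 102, while 5-AZA replicate 101 was the highest in 0 genes and the lowest in 15. Over all genes, untreated replicate 1 was the highest in 28.4%, 5-AZA replicate 102 the highest in 45.4%, and 5-AZA replicate 101 the highest in 12.7% and the lowest in 35.2%. The 15 mitotic markers did the same in the untreated pair only, with 15 of 15 higher in replicate 1 and a median difference of 0.31 on the log2 scale. In the 5-AZA pair, replicate 101 was the higher in 11 of 15 mitotic markers but in 7 of 35 replication genes. Without untreated replicate 1, 14 replication genes were below 0 and 21 above, with a median log2 fold change of 0.05, and Pole2 alone passed. Without untreated replicate 2, 26 were below 0 and the median was -0.22. The share that division of the cultures had in this difference was not tested.

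**Figure D3:**
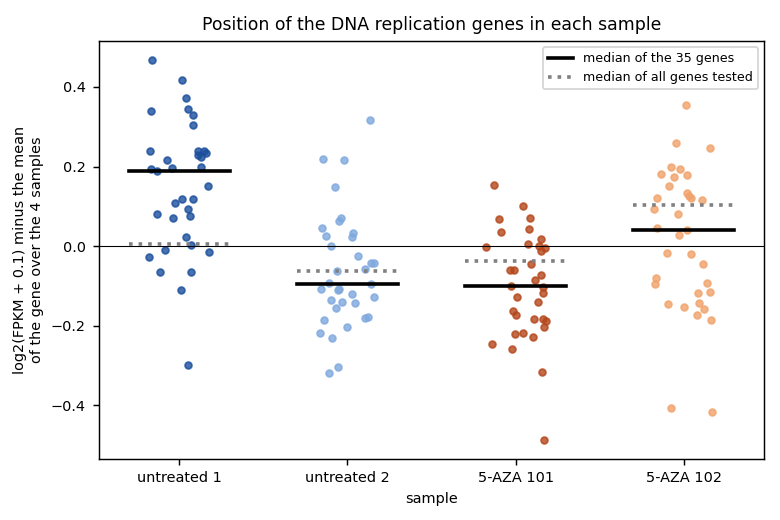
Log2(FPKM + 0.1) of each replication gene in each sample minus the mean of that gene over the 4 samples, with the median of the 35 genes (black line) and of all genes tested (dotted line). The median of the replication genes lies at 0.19 in untreated replicate 1 and at -0.10 in both untreated replicate 2 and 5-AZA replicate 101.

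The 6 MCM genes, whose products form the ring of the replicative helicase, all had log2 fold changes below 0, with a median of -0.24, and 0 of 6 passed. Mcm6 was at 25.3 and 20.6 FPKM in the untreated samples and at 17.6 and 17.8 FPKM after 5-AZA, a log2 fold change of -0.36 (standard error, SE, 0.13, limma adjusted p = 0.0731). Mcm3 was at 19.1 and 16.97 FPKM and then at 14.4 and 14.96 FPKM, a log2 fold change of -0.29 (limma adjusted p = 0.111). In both genes the groups did not overlap. Mcm5 was at 17.8 and 13.2 FPKM and then at 11.8 and 12.9 FPKM, and Mcm2 at 9.83 and 8.06 FPKM and then at 7.64 and 7.86 FPKM. Here too the groups did not overlap, but untreated replicate 2 lay next to the 5-AZA samples and only replicate 1 stood higher. Mcm4 and Mcm7 overlapped between the groups, with Mcm7 at 20.1 and 17.2 FPKM and then at 17.2 and 19.8 FPKM (log2 fold change -0.01). Without untreated replicate 1 the median of the MCM genes was -0.07 and 4 of 6 were below 0.

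The MCM subunits enter the ring in equal numbers, and their levels lay within 3-fold of each other. On the FPKM scale, which takes transcript length into account, the highest MCM value of a sample was 2.58 and 2.55 times the lowest in the untreated samples and 2.31 and 2.51 times after 5-AZA. The lowest was Mcm2 in each sample, and the highest was Mcm6, or Mcm7 in 5-AZA replicate 102.

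DNA polymerase alpha-primase, which starts every new strand, had 3 of its 4 genes below 0 and 0 passed. Prim2, the large primase subunit, was at 12.8 and 14.1 FPKM in the untreated samples and at 10.5 and 11.4 FPKM after 5-AZA (log2 fold change -0.30, standard error 0.12, adjusted p = 0.124, limma). Prim1, the catalytic primase subunit, was at 17.5 and 15.6 FPKM and then at 14.5 and 13.8 FPKM (log2 fold change -0.22). Neither gene overlapped between the groups, and Prim2 was higher in untreated replicate 2, unlike most replication genes. This value rested on the predicted transcript XM_006495797.2, at 3.23 FPKM there and at up to 0.0181 FPKM in the other samples. The curated NM_008922.2 of Prim2 was at 12.3 and 10.4 FPKM and then at 10.02 and 10.4 FPKM, so that its groups overlapped, and gave a log2 fold change of -0.15. Pola1, the catalytic polymerase subunit, was at 12.0 and 9.86 FPKM and then at 9.85 and 9.13 FPKM, so that untreated replicate 2 and 5-AZA replicate 101 were almost level. Pola2, the regulatory subunit, was at 6.83 and 6.95 FPKM and then at 5.96 and 8.27 FPKM, with the untreated samples between the 5-AZA samples.

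DNA polymerase delta, which extends the lagging strand, had genes on both sides of 0 and 0 of 4 passed. Pold2, an accessory subunit, was at 8.44 and 6.87 FPKM in the untreated samples and at 5.66 and 5.95 FPKM after 5-AZA (log2 fold change -0.39, standard error 0.16, adjusted p = 0.113, limma). Pold4, the smallest subunit, lay in the other direction, at 13.9 and 12.8 FPKM and then at 15.2 and 16.4 FPKM (log2 fold change 0.25, adjusted p = 0.176, limma). The groups overlapped in neither gene. Pold1, the catalytic subunit, had a log2 fold change of -0.08 and Pold3 of 0.06, and both overlapped between the groups.

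DNA polymerase epsilon, which extends the leading strand and is part of the active helicase complex, held the largest change of the replication genes. Pole2 was at 11.7 and 10.9 FPKM in the untreated samples and at 6.97 and 6.49 FPKM after 5-AZA. Both 5-AZA values lay well below both untreated values, and the samples within each group lay close together. The mean went from 11.3 ± 0.559 FPKM to 6.73 ± 0.334 FPKM (SD, n = 2), a change of -40.2%, and the log2 fold change was -0.73 (SE 0.13, limma adjusted p = 0.00385). Pole2 passed in every alternative that kept all 4 samples and without either untreated sample, and missed the threshold without 5-AZA replicate 101 (limma adjusted p = 0.0738) and without 5-AZA replicate 102 (limma adjusted p = 0.0887), where the log2 fold change was -0.78 and -0.68.

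The other 3 subunits of this polymerase did not pass, and their difference from Pole2 was not tested. Pole, the catalytic subunit, was at 2.55 and 1.87 FPKM and then at 2.22 and 2.25 FPKM, with a log2 fold change of 0.03. Pole3 and Pole4, small histone-fold subunits, had log2 fold changes of -0.11 and 0.19, and the groups overlapped in all 3. Pole4 was 6.85 and 7.01 times as abundant as Pole in the untreated samples and 7.52 and 7.97 times after 5-AZA on the FPKM scale (highest over lowest value of the 4 subunits).

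The single-strand binding proteins showed no common direction. The replication protein A genes Rpa1, Rpa2 and Rpa3 had log2 fold changes of 0.02, -0.06 and -0.20, and all 3 overlapped between the groups. Rpa3 was at 43.4 FPKM in untreated replicate 1 and at 30.9 to 34.8 FPKM in the other samples. Ssbp1, the binding protein of mitochondrial DNA that the pathway also lists, was at 15.3 and 14.5 FPKM in the untreated samples and at 16.9 and 19.8 FPKM after 5-AZA (log2 fold change 0.30, standard error 0.12, adjusted p = 0.122, limma). It was the sole replication gene that was higher at an unadjusted p-value below 0.05.

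The clamp and its loader went in different directions, and 0 of their 6 genes passed. Pcna was at 93.3 and 83.3 FPKM in the untreated samples and at 70.8 and 71.8 FPKM after 5-AZA. The 5-AZA values almost coincided and lay below both untreated values, with a log2 fold change of -0.31 (SE 0.10, limma adjusted p = 0.0556). Rfc5, a subunit of the replication factor C complex that opens the clamp, was at 7.09 and 5.73 FPKM and then at 7.97 and 8.11 FPKM (log2 fold change 0.33, standard error 0.15, adjusted p = 0.164, limma). Its groups did not overlap, and untreated replicate 2 was the lowest sample. Rfc1, Rfc2, Rfc3 and Rfc4, the other loader subunits, had log2 fold changes of -0.02, 0.04, 0.20 and -0.06, and each overlapped between the groups. The highest value of the clamp and loader genes, that of Pcna, was 13.2 and 14.5 times the lowest in the untreated samples and 8.89 and 8.85 times after 5-AZA on the FPKM scale.

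The genes of primer removal and ligation held the second gene that passed. Rnaseh2b was at 12.2 and 10.7 FPKM in the untreated samples and at 9.06 and 7.23 FPKM after 5-AZA, a log2 fold change of -0.49 (SE 0.15, limma adjusted p = 0.0485). The groups did not overlap, but the 5-AZA samples differed from each other about as much as from the nearer untreated sample. It missed the threshold in 10 of 13 alternatives, with an adjusted p of up to 0.256 (limma, without untreated replicate 1). The other ribonuclease H2 subunits, the catalytic Rnaseh2a and the accessory Rnaseh2c, had log2 fold changes of 0.04 and 0.02 and overlapped between the groups.

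Rnaseh1, which removes RNA from RNA-DNA hybrids, was at 5.50 and 5.77 FPKM in the untreated samples and at 3.50 and 5.36 FPKM after 5-AZA (log2 fold change -0.37, adjusted p = 0.254, limma). The difference rested on 5-AZA replicate 101, since replicate 102 lay next to the untreated samples. Lig1, DNA ligase I, was at 5.64 and 3.78 FPKM and then at 3.37 and 3.73 FPKM (log2 fold change -0.37, adjusted p = 0.260, limma), where untreated replicate 1 alone stood higher. Fen1, the flap endonuclease, was at 11.2 and 9.75 FPKM and then at 11.4 and 12.9 FPKM (log2 fold change 0.21, adjusted p = 0.308, limma), with the groups just apart.

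Dna2 had the highest log2 fold change of the 35 genes but also the lowest level. It was at 0.290 and 0.331 FPKM in the untreated samples and at 0.414 and 0.513 FPKM after 5-AZA, a log2 fold change of 0.46 (SE 0.32, limma adjusted p = 0.350). The groups did not overlap. On the log2(FPKM + 0.1) scale the change of so low a gene is understated, and quantile normalization turned it to -0.75 (limma adjusted p = 0.0709).

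Single transcripts of the replication genes gave no call. Of their 84 transcripts 72 passed the limit on low values, and 0 were called lower and 0 higher, against 0.262% and 2.1% of the 35557 transcripts tested. At an unadjusted p-value below 0.05, 5 of the 72 were lower and 2 higher, against 5.37% and 10.6% of all transcripts tested, and the smallest adjusted p was 0.112 (limma), that of NM_011133.2 of Pole2. This curated transcript made up 68.1% of the gene and was at 7.76 and 7.85 FPKM in the untreated samples and at 4.68 and 4.22 FPKM after 5-AZA.

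The division of a gene's reads among its transcripts was less steady than the sum. In Lig1, NM_010715.2 made up 87.9% of the gene in the untreated samples and 65.5% after 5-AZA, and NM_001083188.1 made up 10.1% and 33.4%. The latter was at 0.497 and 0.450 FPKM and then at 0.839 and 1.54 FPKM (limma adjusted p = 0.384). In Rnaseh2a, XM_011248497.2 was at 1.45 FPKM and XM_011248498.2 at 5.37 FPKM in untreated replicate 1, while in replicate 2 they were at 5.53 and 0.955 FPKM, although the sum of the gene was at 7.28 and 7.73 FPKM. With curated transcripts alone, which leaves NM_027187.3 of this gene, the log2 fold change of Rnaseh2a was 1.10 (limma adjusted p = 0.210) in place of 0.04. The 2 transcripts of Rnaseh1 carried identical values in each sample. Values of transcripts that share exons thus cannot be told apart reliably, and the gene sums are used elsewhere.

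The change after 5-AZA was then read beside these E2F letters. The 11 genes with a match had a median log2 fold change of -0.20, from -0.73 (Pole2) to 0.20 (Rfc3), with 8 below 0. The 18 matched genes without it had a median of 0.0007, from -0.39 (Pold2) to 0.46 (Dna2), with 9 below 0. The letters were thus found in genes whose estimate was below 0, such as Mcm6, and in genes whose estimate was above 0, such as Pole4, and the difference between the 2 sets of genes was not tested. The CCAAT letters, searched on both strands, were in 16 of the 29 genes (55.2%) against 41.1% of all genes in the table, and TTTGAA, the letters of the cell cycle homology region, in 4 (13.8%) against 20.2%. A match is a description of letters and was not tested as a binding site, and methylation was not measured.

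The other genes of DNA replication and its control were described from lists of further genes. In origin licensing, where the origin recognition complex, Cdc6 and Cdt1 place the MCM ring, 0 of 10 genes passed and the median log2 fold change was 0.00, from -0.23 for Gmnn (geminin, the inhibitor of Cdt1) to 0.22 for Orc3. Centring gave 0 that passed, and quantile normalization 1, as lower. Among 17 genes of helicase activation and fork progression, 0 passed and the median was 0.01. Centring gave 0 that passed. Quantile normalization gave 2 that passed as lower, 1 of them called, beside 19% of all genes passing as lower. Ticrr, which helps to fire origins, was the lowest at -0.63 (limma adjusted p = 0.196), followed by Timeless, a fork protection factor, at -0.51, and Donson the highest at 0.28. Timeless was at 5.15 FPKM in untreated replicate 1 and at 2.48 to 2.68 FPKM in the other samples.

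In nucleotide supply, 1 of 10 genes passed as lower and 1 as higher, against 5.93% and 18.6% of all genes tested. The median was 0.05. Tk1, thymidine kinase, was at 26.2 and 22.7 FPKM in the untreated samples and at 19.1 and 16.8 FPKM after 5-AZA, and fell by 0.45 on the log2 scale (limma adjusted p = 0.0303). Samhd1, which degrades deoxynucleotides, was at 6.27 and 5.00 FPKM and then at 10.5 and 11.6 FPKM, and rose by 0.97 on the log2 scale (limma adjusted p = 0.00224), just short of 2-fold. In neither gene did the groups overlap. Tk1 missed the threshold with any sample but untreated replicate 2 left out (limma adjusted p of 0.143 to 0.255), and Samhd1 without 5-AZA replicate 101 (limma adjusted p = 0.119) and without 5-AZA replicate 102 (limma adjusted p = 0.141). Both also missed it without a limit on low values (limma adjusted p of 0.136 and 0.0646), and Tk1 without trend and with curated transcripts only (0.121 and 0.0797).

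In replication-coupled chromatin assembly and maintenance, 0 of 8 genes passed and the median was -0.17, from -0.56 for Chaf1b to 0.12 for Hells. Centring gave 1 of these genes that passed as lower, and quantile normalization 1. Dnmt1, the maintenance DNA methyltransferase and a protein that 5-AZA in DNA traps, was at 14.1 and 11.5 FPKM in the untreated samples and at 12.8 and 12.8 FPKM after 5-AZA (log2 fold change 0.00, 95% interval -0.31 to 0.31), and was named after its values were seen. Of the alternative clamp loaders and clamp regulators 0 of 8 passed, with a median of -0.13, from -0.49 for Chtf18 to 0.25 for Dscc1. After centring 2 of these 8 passed as lower and after quantile normalization 3, beside 14% and 19% of all genes.

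Among the 7 further lists, the regulators of entry into S phase held the largest change. Of their 24 genes, 3 fell and 4 rose, with a median of -0.02, against 5.93% and 18.6% of all genes tested. E2f1, an activating E2F, was at 5.92 and 6.21 FPKM in the untreated samples and at 4.02 and 4.06 FPKM after 5-AZA, and fell by 0.57 on the log2 scale (limma adjusted p = 0.0253). Ccna2, cyclin A2, fell by 0.49 (limma adjusted p = 0.0295) and Cdk4 by 0.45 (limma adjusted p = 0.0238). These 3 were lower by less than 2-fold, and their groups did not overlap. E2f1 and Cdk4 missed the threshold with any of the 4 samples left out, and Ccna2 with any but untreated replicate 2 (limma adjusted p of 0.0566 to 0.291). Ccna2 and Cdk4 also missed it without a limit on low values, without trend and with curated transcripts only (0.0593 to 0.164), and E2f1 with curated transcripts only (0.0702).

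The 4 that rose were each called. Cdkn1a, the inhibitor p21 of cyclin-dependent kinases, was at 15.99 and 15.1 FPKM in the untreated samples and at 29.0 and 37.1 FPKM after 5-AZA, a log2 fold change of 1.07 (SE 0.13, limma adjusted p = 5.25e-04). E2f6, a repressor of the E2F family, rose by 1.43 (limma adjusted p = 3.83e-04). E2f2 was at 0.276 and 0.114 FPKM and then at 0.701 and 0.839 FPKM (limma adjusted p = 0.0128). Cdkn1c, the inhibitor p57, was at 0.0159 and 0 FPKM and then at 0.902 and 1.74 FPKM (limma adjusted p = 2.09e-04), so that E2f2 and Cdkn1c stayed low in all samples. Cdkn1c passed with each sample left out in turn, as did Cdkn1a, which missed the threshold without a limit on low values (limma adjusted p = 0.0551) and was just under 2-fold after centring and quantile normalization (log2 fold changes of 0.96 and 1.00). E2f6 missed the threshold without either 5-AZA sample, and E2f2 without untreated replicate 2, without either 5-AZA sample, without a limit on low values, with curated transcripts only and after quantile normalization (log2 fold change 0.45, limma adjusted p = 0.307).

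The mitotic markers, which cells express in G2 and M phase, were below 0 in 14 of 15 genes with a median log2 fold change of -0.20, and 0 passed. In 8 of the 15 both 5-AZA values lay below both untreated values, against 25.4% of all genes, and in 0 both lay above, against 36.8%. Kif11 was the lowest at -0.40, followed by Cdk1 at -0.375, and Aurka the highest at 0.07. Top2a was at 61.1 and 45.8 FPKM in the untreated samples and at 51.9 and 48.5 FPKM after 5-AZA, and Mki67 at 16.7 and 12.5 FPKM and then at 11.9 and 11.1 FPKM. In most of these genes untreated replicate 1 stood above the rest. Without it the median was -0.04 and 10 of 15 were below 0. After centring 15 of 15 were below 0 and 3 passed as lower, and after quantile normalization 2 passed, beside the shifts of all genes given above. Mki67 was named after its values were seen.

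**Figure D4:**
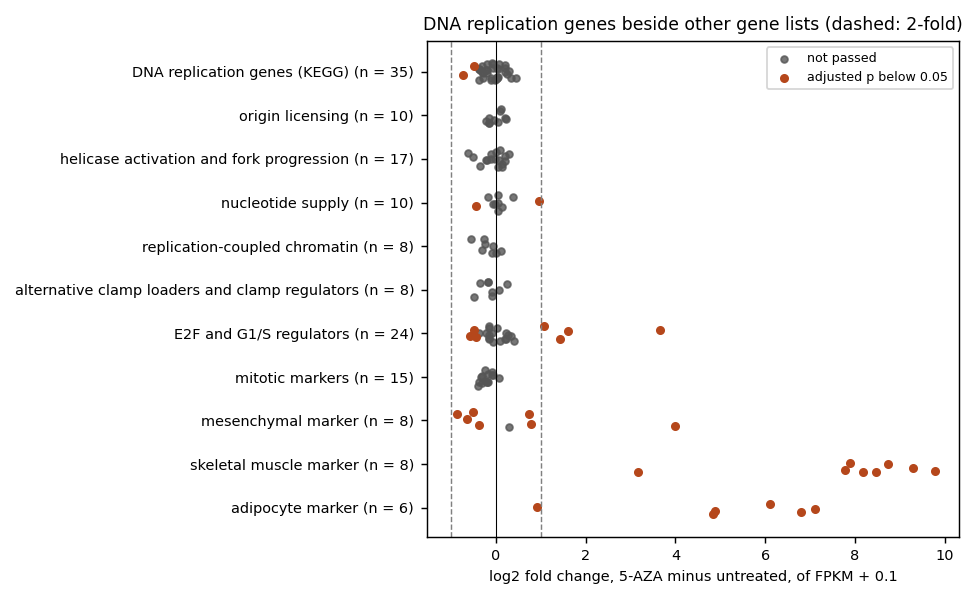
Log2 fold changes, 5-AZA minus untreated, on the log2(FPKM + 0.1) scale, with 1 point for each tested gene of the DNA replication pathway and of further lists. The replication genes lie between -0.73 and 0.46, within the dashed 2-fold lines, while the skeletal muscle markers lie between 3.17 and 9.79.

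Circular RNAs of the replication genes rested on few reads. Of 4295 circRNAs in the authors' table, 8 had 1 of 7 replication genes as their host (Mcm4, Mcm5, Pola1, Rfc1, Rfc2, Rnaseh2b and Ssbp1). The share of all genes that host a listed circRNA was not determined, so the count is not a trait of these genes. The RPM values are whole multiples, within 0.01 reads, of the value of 1 junction read, which gives 2 to 8 back-spliced reads for each of the 8, all of them in a single sample. Pola1 hosted 2, at 5 reads in untreated replicate 1 and 4 reads in untreated replicate 2, and Rfc1 hosted the most abundant, at 8 reads in untreated replicate 1. The 4 samples held 16, 7, 2 and 8 such reads of replication genes in all, out of 13282, 13388, 10905 and 10448 junction reads of all circRNAs. Of all listed circRNAs, 68.3% were also listed in 1 sample only, and the fewest reads listed were 2, so that a difference between the groups was not detectable at this depth.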

How the data were processed

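Total RNA of 2 untreated and 2 5-AZA-treated samples was depleted of ribosomal RNA and sequenced with a stranded protocol by the authors. The authors deposited FPKM values per mRNA transcript with KEGG terms, and RPM values of back-spliced junction reads per circRNA. The submitters' processing notes name Trimmomatic, HISAT2, Bowtie2 2.2.9, eXpress 1.5.1 and the build mm9. The paper names DESeq for the authors' own tests, which were not used. The lncRNA values were not used here.

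Genes whose deposited pathway terms hold mmu03030 were taken, and the transcripts of each gene were summed. The members and the gene lists were chosen with earlier results of these data known. For genes with a mean of at least 0.1 FPKM, 0.1 FPKM was added before the log2, and a linear model with moderated variances that follow a trend was fitted with limma (version 3.58.1, R version 4.3.3). All genes tested shared the Benjamini-Hochberg adjustment. The R package data.table, version 1.17.8, read the files. The depth behind an FPKM value is unknown, and 2 samples in each group limit the precision. Other pseudocounts, limits, scalings, eBayes without trend, curated transcripts alone and the omission of each sample were tried. The fit was tested on simulated data.

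Genes given in every sample are those that passed, those with the 2 lowest or 2 highest changes and the most and least abundant, and further ones were named by role after their values were seen. From each further list the 2 lowest, the 2 highest and the called genes may be named. Promoter sequences are from RefSeq on GRCm38.p6, and no coordinates were converted between builds.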

Additional observations from a re-analysis of the deposited data

How the results depend on the processing

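No replication gene was called lower or higher, at an adjusted p below 0.05 and over 2-fold, in any of the 13 alternatives. Among the counts at an adjusted p below 0.05 (limma), 2 genes were lower as reported, 1 with a pseudocount of 0.01 FPKM, 1 with 1 FPKM, 1 without a limit on low values, 1 without trend, 1 with curated transcripts only, 7 after centring on the sample median and 7 after quantile normalization, and 0 to 1 with a sample left out. Without the adjustment 7 were lower as reported, 4 without a limit on low values, 12 after centring, 12 after quantile normalization, 2 without trend, 4 with curated transcripts and 1 to 8 with a sample left out. Higher genes at an unadjusted p below 0.05 numbered 1 as reported, 0 after centring, 2 with FPKM rescaled to a common sum per sample, 0 with curated transcripts and 0 to 2 with a sample left out. The median log2 fold change of the replication genes, -0.06 as reported, was -0.224 to 0.0469 with a sample left out, so that its sign depended on the samples. Its difference from the median of all genes was below 0 in each alternative (-0.04 to -0.25). Centring and eBayes without trend could not alter that difference, so they are no check on it. The cause of the differences between the alternatives was not tested. Replication genes that passed as lower numbered 3 with FPKM rescaled to a common sum per sample and 2 with a limit of 1 FPKM. The shares of all genes were 8.41% and 6.94%. Over all genes, 174 were called lower and 1724 higher as reported, and 886 and 1041 after quantile normalization. A lone sample in a group was assumed to vary like the other group. No paired analysis was possible because the replicate numbers of the groups (1 and 2, 101 and 102) are not shared. With 2 samples in each group and no read counts, a gene that did not pass has not been shown to be unchanged.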
